A study of Mus musculus with 4 samples.

Results

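The cells described here were Kit+ bone marrow cells with transcripts of Mcpt8 or Prss34, 2 serine proteases of basophil granules. They were chosen from 2 single-cell libraries, control Kit+ cells and Mll3/4SI Kit+ cells. A cell barcode entered with 1000 or more UMIs, 500 or more genes and no more than 10% of its UMIs from mitochondrial genes. A UMI (unique molecular identifier) stands for 1 captured transcript. It was a member when its Mcpt8 and Prss34 UMIs summed to at least 3 and it had fewer than 3 UMIs of the B-cell gene Cd79a, a limit that removed 0 cells from either library. The rule selected 180 of 11891 control cells and 249 of 12081 SI cells, 429 of the 55216 cells kept in all 4 libraries of the series. In the other libraries it selected 11 of 14915 Mll3/4 deleted Kit+ cells and 8 of 16329 control B220lo cells, too few to describe.

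Both libraries held CD45.2+Kit+ bone marrow taken 10 weeks after transplantation and were made with a 10x Genomics 5′ version 2 kit. CD45.2 is a surface antigen used to separate donor from host blood cells, and Kit, the receptor of stem cell factor, marks stem and progenitor cells. Kmt2c and Kmt2d encode MLL3 and MLL4, enzymes that methylate histones, and the series title sets their roles in blood cells against their enzymatic function. The labels leave SI unexplained and give neither the allele, the strain or age of the mice nor the number of mice in a library. There was 1 library per group, so no difference was tested, and every interval below is a 95% exact interval that covers counting error alone.

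Basophils are rare granulocytes that arise in bone marrow from progenitors with the transcription factors GATA2 and C/EBPα. They carry the high-affinity IgE receptor, made of the chains encoded by Fcer1a, Ms4a2 and Fcer1g, and store histamine, made by the enzyme encoded by Hdc. Mast cells share the receptor, histamine and the carboxypeptidase encoded by Cpa3, but hold chymases and tryptases in place of Mcpt8 and Prss34.

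The label "basophil progenitors" was checked against other genes, and the answer was mixed: nearly all members held a neutrophil and monocyte granule transcript, and a minority had a UMI of the IgE receptor chains Fcer1a or Ms4a2. Mpo, the myeloperoxidase of early neutrophil and monocyte granules, had at least 3 UMIs in 173 of 180 control and 237 of 249 SI members. Among all kept cells it had as many in 7129 of 11891 control and 8556 of 12081 SI cells, so Mpo is common in both libraries. It stood at 10294 CPM in control and 12657 CPM in SI members, where CPM is the number of UMIs of the gene, summed over the cells, per 1000000 of their UMIs. Fcer1a or Ms4a2 had a UMI in 43 control members, 23.9% (17.9 to 30.8), and in 78 SI members, 31.3% (25.6 to 37.5). A cell with 0 UMIs may still express a gene at this depth. Genes that basophils share with other myeloid or progenitor cells were found in more members, with a UMI of Fcer1g in 163 control and 234 SI, of Hdc in 130 and 181, of Cebpa in 128 and 185 and of Gata2 in 98 and 138. In erythroid cells (Klf1 and at least 3 Car1 UMIs, median depth 19519 and 19561 UMIs against 15698 and 15882 in members) the shares were 26.4% and 32.5% for Fcer1g, 15.05% and 17.1% for Hdc, 14.4% and 14.5% for Cebpa and 66.6% and 66.5% for Gata2. The members' shares were 90.6% and 94.0%, 72.2% and 72.7%, 71.1% and 74.3%, and 54.4% and 55.4% in the same order. Gata2 thus does not set members apart from erythroid cells. Fcer1a stood at 2.42 CPM in control and 40.3 CPM in SI erythroid cells, against 47.2 and 193 CPM in members. A single Fcer1a UMI therefore says less in SI. In the Mpo-high comparator defined below (median depth 13922 and 14852.5 UMIs) the shares were 83.6% and 87.0% for Fcer1g and 60.7% and 65.3% for Hdc. They were 57.1% and 62.6% for Cebpa and 27.6% and 44.6% for Gata2. Each was below the members' share, most so for Gata2 in control. At equal depth Fcer1g was found in 44.4% of control members and 50.2% of the comparator, and Gata2 in 22.8% and 9.46%. In SI the values were 62.2% and 56.9%, and 26.8% and 16.4%. Equal depth was reached by a random draw of UMIs, and another draw can shift these shares. The cells are therefore called Mcpt8/Prss34 members below. Most stood near the threshold of the rule, with 3 to 9 protease UMIs in 153 control and 202 SI members. Exactly 3 UMIs were found in 71 and 104 cells, and 272 and 253 cells with 2 UMIs lay just outside. On either side of the threshold Mpo stood at 10481 CPM (2 UMIs) and 11317 CPM (3 UMIs) in control cells, and Cpa3 at 219 and 227 CPM. In SI cells Mpo stood at 12909 and 12269 CPM, and Cpa3 at 568 and 577 CPM.

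The upstream sequences of 4 genes are shown because the results turn on them: both rule genes, Cpa3, which was higher in SI than in control members with 3 to 9, 10 to 29 and 30 or more protease UMIs, and Fcer1a, which had the highest ratio among the IgE receptor genes. The sequences come from the RefSeq table of build GRCm38.p6, all 4 genes matched, and each window ends at the base before the RefSeq start of the gene, from which positions are counted. The gene spans given below are those of GENCODE M21, whose start for Fcer1a lies a few bases further downstream. The Mcpt8 window lies at chr14:56085274-56085447 (minus strand), Prss34 at chr17:25298144-25298393 (plus strand), Cpa3 at chr3:20242182-20242431 (minus strand) and Fcer1a at chr1:173227230-173227479 (minus strand). From the end of the RefSeq Mcpt8 window the 76 bases that the GENCODE M21 annotation places inside the gene are left out. Capitals mark GATAA, the core motif of GATA factors such as GATA2, searched on both strands, and TTATC is its reverse complement.
Mcpt8: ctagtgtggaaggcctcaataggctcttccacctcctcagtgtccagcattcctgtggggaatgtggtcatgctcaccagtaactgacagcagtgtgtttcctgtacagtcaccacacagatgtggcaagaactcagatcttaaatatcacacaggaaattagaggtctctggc
Prss34: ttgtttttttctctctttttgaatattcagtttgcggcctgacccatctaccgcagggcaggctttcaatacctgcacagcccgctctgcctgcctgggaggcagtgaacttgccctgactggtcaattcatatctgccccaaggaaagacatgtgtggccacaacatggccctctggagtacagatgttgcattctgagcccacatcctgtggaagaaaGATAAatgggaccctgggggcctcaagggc
Cpa3: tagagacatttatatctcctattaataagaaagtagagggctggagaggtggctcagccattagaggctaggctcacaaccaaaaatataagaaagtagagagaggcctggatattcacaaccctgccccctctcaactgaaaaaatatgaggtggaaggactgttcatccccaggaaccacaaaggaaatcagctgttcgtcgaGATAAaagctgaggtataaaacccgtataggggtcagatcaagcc
Fcer1a: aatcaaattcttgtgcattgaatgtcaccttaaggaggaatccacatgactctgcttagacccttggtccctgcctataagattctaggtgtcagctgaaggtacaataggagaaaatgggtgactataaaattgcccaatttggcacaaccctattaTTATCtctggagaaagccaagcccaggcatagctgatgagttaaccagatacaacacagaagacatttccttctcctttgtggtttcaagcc
A match began at -30 from the start site for Prss34, at -45 for Cpa3 and, on the reverse strand, at -92 for Fcer1a. The letters GATAA were not in the 250 bases of the Mcpt8 window as RefSeq gives it. The motif occurred in 22.6% of 32851 upstream windows of the same length, and a match is a description of the letters, not a binding site.

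The share of members was 1.51% (1.30 to 1.75) in the control and 2.06% (1.82 to 2.33) in the SI library. Among cells with at least 3 Mpo UMIs, of which the SI library held more, the shares were 2.43% (2.08 to 2.81) and 2.77% (2.43 to 3.14), and these intervals overlap. Fewer member cells and fewer protease transcripts per cell cannot be told apart near a threshold of 3 UMIs. With at least 10 protease UMIs, the members were 0.227% of control and 0.389% of SI cells. The members gave 3323665 UMIs in the control and 4303528 in the SI library, with medians of 15698 and 15882 UMIs per cell against 12199 and 12349 over all kept cells. A doublet score of 0.25 or more was reached by 20 control and 21 SI members, 11.1% and 8.43%, against 7.06% and 4.80% of all kept cells. The libraries shared 214 barcodes, and 0 barcodes were members in both. No member had an assembled antigen receptor contig. Beside the rule genes, the genes of at least 50 CPM in members that stood highest over all other cells describe the choice of cells. In control they were Prg2, Prg3, Gzmb, Ms4a2, Cpa3 and Lmo4, and in SI Prg2, Gzmb, Ccl9, Galnt6 and Lmo4. Some of these rest on few cells. Prg2 had a UMI in 10 control and 6 SI members, Gzmb in 9 and 17, and Prg3 in 18 control members. Of the SI Prg2 UMIs, 256 came from 1 cell.

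The proteases themselves formed the rule, so their levels are a description. Mcpt8, encoded on chromosome 14 from 56082166 to 56085273, had a UMI in 177 of 180 control and in all 249 SI members. It stood at 335 CPM (315 to 355) in control and 493 CPM (472 to 514) in SI members. Prss34, on chromosome 17 from 25298394 to 25300165, was found in far fewer cells and differed in the opposite direction. It had 1067 UMIs in 27 control members, 321 CPM (302 to 341), and 119 UMIs in 11 SI members, 27.7 CPM (22.9 to 33.1), a log2 ratio of -3.49. A single control cell held 519 of the UMIs, 48.6%. With the 3 members of 100 or more protease UMIs left out, the log2 ratio was -1.92. The number of cells does not depend on that cell, with Prss34 in 27 of 180 control (10.1% to 21.1%) and 11 of 249 SI members (2.23% to 7.77%). After each cell was thinned to 3000 UMIs, the shares were 9.44% (5.60 to 14.7) and 2.44% (0.900 to 5.23). Over all kept cells, members included, Prss34 had a UMI in 50 control cells, 0.420% (0.312 to 0.554), and in 25 SI cells, 0.207% (0.134 to 0.305).

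The balance of the 2 proteases within a cell is likewise a description of the genes that chose the cells. Prss34 exceeded Mcpt8 in 17 control and 6 SI members. Of the members with 30 or more protease UMIs, 8 of 9 in control held Prss34, against 4 of 15 in SI. The control cell with most protease UMIs had 100 UMIs of Mcpt8 and 519 of Prss34, with 28 of Fcer1a, 29 of Cpa3 and 0 of Mpo. The SI cell with most had 118 UMIs of Mcpt8 and 0 of Prss34, with 10 of Fcer1a, 82 of Cpa3, 30 of Gzmb and 0 of Mpo. Most cells with 30 or more protease UMIs held Mpo, which was at 0 in 1 of the 9 control and 4 of the 15 SI cells, so these single cells do not stand for the rest. The scatter of protease UMIs shows every member.

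**Figure D1:**
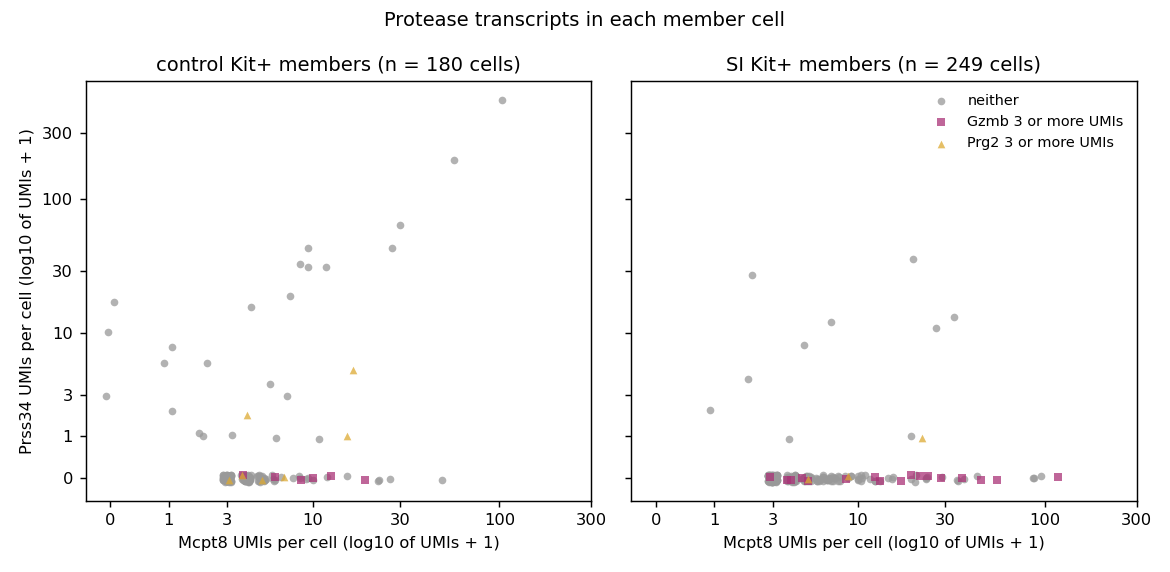
Mcpt8 UMIs (horizontal) against Prss34 UMIs (vertical) in each of 180 control and 249 SI members, on log10 axes of UMIs + 1 with a small random shift, coloured by Gzmb and Prg2 UMIs. Prss34 has a UMI in 27 control and 11 SI members and 3 or more in 19 and 7, and every cell with 3 or more Gzmb UMIs lies at 0 Prss34.

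Some members held a further granule transcript. Gzmb, the granzyme B gene, had at least 3 UMIs in 6 control and 17 SI members, and 0 of these held Prss34, while 1 control member with Prss34 had 1 Gzmb UMI. Prss34 was in 27 of 180 and 11 of 249 members in all, so the 0 is a count from which no separation is read. Prg2, the major basic protein of eosinophil granules, had at least 3 UMIs in 7 control and 3 SI members, of which 3 and 1 also held Prss34 and 0 held 3 Gzmb UMIs. With so few cells these overlaps are counts only. The remaining 143 control and 219 SI members had none of these above the stated counts. These groups were defined after the cells had been examined, and they are ranges of counts, not cell types. Summed over cells, the Prss34 and Gzmb groups of both libraries had more Cpa3 and Gata2 than the remaining members.

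The Gzmb-positive members had further mast cell genes. Il1rl1, the receptor of interleukin 33, stood at 663 CPM (536 to 811) in the 17 SI cells and 59.0 CPM (19.2 to 138) in the 6 control cells, against 7.05 and 3.29 CPM in the remaining members. In the Prss34 cells it stood at 69.4 CPM (34.6 to 124) in SI and 27.2 CPM (14.1 to 47.5) in control. The control Prg2 cells had 31.8 CPM (8.66 to 81.4). The control intervals of the 3 groups overlap, and the control Gzmb value rests on 5 UMIs. Itgb7, an integrin chain found on mast cell progenitors, stood at 451 CPM (347 to 576) and 271 CPM (172 to 407), against 15.4 and 11.0 CPM. Cma1, a mast cell chymase, had a UMI in 7 of the 17 SI and 2 of the 6 control cells. Cpa3 reached 6937 CPM (6510 to 7385) in SI and 1015 CPM (812 to 1254) in control. In the Prss34 and Prg2 groups Cpa3 stood at 2372 and 1919 CPM in SI and at 979 and 1136 CPM in control. Mpo was at 0 UMIs in 8 of the 17 SI and 3 of the 6 control Gzmb cells. Over all members, 7 of the 16 genes of the mast cell list were compared. Cma1, Il1rl1 and Slc45a3 were at or past 2-fold higher in SI and 0 were lower. Over all genes compared between the members, 0.778% were higher and 0.499% lower. The median log2 ratio of the 7 was 0.99, against 0.036 over all genes. Of the 9 genes of the list that were too low to compare, 5 were at 0 in all members, the tryptase gene Tpsab1 among them.

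The Prss34-positive members had IgE receptor transcripts in nearly every cell. Fcer1a or Ms4a2 had a UMI in 24 of 27 control and 11 of 11 SI cells. The other groups had such a UMI often also, in 4 of 6 control and 16 of 17 SI Gzmb cells. It was found in 5 of 7 control and 3 of 3 SI Prg2 cells. Fcer1a stood at 130 CPM (64.8 to 232) in the control and 719 CPM (586 to 873) in the SI Gzmb cells. In the Prss34 cells Fcer1a stood at 272 CPM (226 to 325) in control and 208 CPM (143 to 292) in SI, and these intervals overlap. Gata2 stood at 249 CPM (205 to 301) and 473 CPM (372 to 593). Cpa3 stood at 979 CPM (889 to 1076) and 2372 CPM (2139 to 2625), so Cpa3 differed between the libraries in these cells also. Mpo remained at 8215 and 12751 CPM.

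The Prg2-positive members, 7 and 3 cells, all held 3 or more UMIs of Prg3, a second eosinophil granule protein. Cebpe, a transcription factor of late granulocytes, stood at 588 CPM (462 to 738) in the control and 881 CPM (643 to 1179) in the SI cells, against 76.4 and 51.6 CPM in the remaining members. Epx, the eosinophil peroxidase, had a UMI in 3 and 2 of these cells. A few members thus carried eosinophil genes beside Mcpt8. Over all members Prg3 was lower in SI at 16.7 CPM (13.1 to 21.1) against 61.1 CPM (53.0 to 70.1), a log2 ratio of -1.81, with 45.8% of the SI UMIs from 1 cell. With at least 1000 protease CPM per cell the ratio was 1.75, so its direction depends on which members are counted. Siglecf, a lectin of eosinophils, had a UMI in 70 control and 38 SI members and a log2 ratio of -1.53, which was -1.79 in Mpo-high cells without proteases, -1.66 in all other cells, -0.97 with at least 5 protease UMIs and -0.64 with at least 1000 protease CPM.

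**Figure D2:**
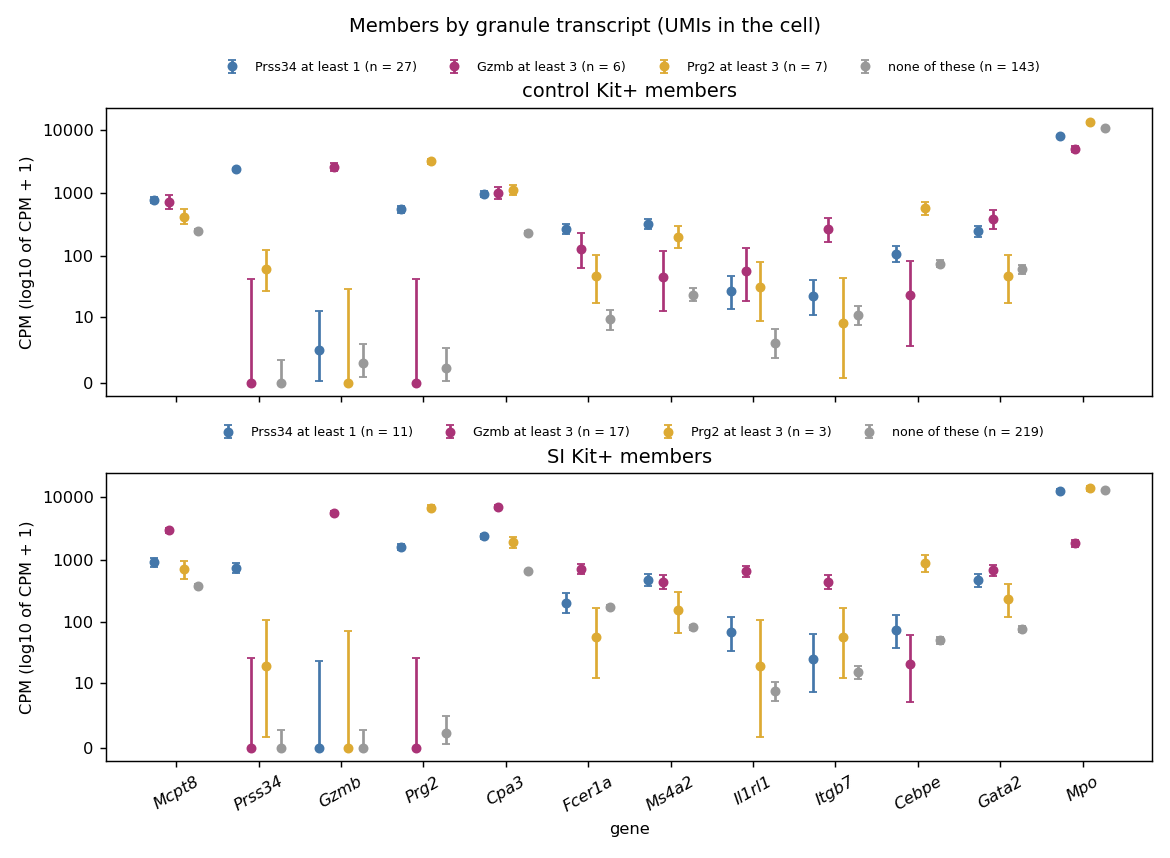
CPM of 12 genes, on a log10 axis of CPM + 1, in members grouped by Prss34, Gzmb and Prg2 UMIs in the cell, control above and SI below; points are sums over the cells and bars are 95% counting intervals. Gzmb cells carry Il1rl1 and Itgb7 at 663 and 451 CPM in SI, and Prg2 cells carry Cebpe at 588 CPM in control and 881 CPM in SI.

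SI members were then compared with control members across all genes. Of 8611 genes with a mean of at least 10 CPM, 67 were at or past 2-fold higher in SI members, 0.778% of those compared, and 43 were at or past 2-fold lower, 0.499%. The median log2 ratio was 0.036 and the median absolute log2 ratio 0.14. The counts and medians of each gene list stand against these shares and this median. The 67 genes had a median log2 ratio of 1.33 in members, 1.63 in Mpo-high cells without proteases and 1.37 in all other cells. For the 43 genes, which include the rule gene Prss34, the medians were -1.53, -1.23 and -1.11. The Mpo-high and other cells share the libraries of the members, so the ratios are not independent. Leaving out the 19 control and 6 SI members with at least 3 UMIs of the erythroid gene Car1 or the platelet gene Pf4 gave 28 lower genes, 23 of them among the 43. All log2 ratios carry a pseudocount of 1 CPM, which understates the ratio of low genes. Kmt2c and Kmt2d, the genes of the 2 proteins, stood at 55.4 and 18.1 CPM in control and at 56.5 and 23.7 CPM in SI members. Counts from the 5′ end of a transcript do not read a change further along the gene.

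Of the 16 granule genes listed, 12 were compared. Cpa3, Gzmb and Cma1 were at or past 2-fold higher in SI, Prss34 was lower, and the median log2 ratio of the 12 was 0.10 against 0.036 over all genes. The list holds both rule genes, Mcpt8 and Prss34, whose values chose the cells, so these figures in part describe that choice. Cpa3, on chromosome 3 from 20215620 to 20242181, stood at 378 CPM (357 to 399) in control and 953 CPM (924 to 982) in SI members, a log2 ratio of 1.33. The ratio was below 2-fold in members with at least 10 protease UMIs (0.93), with 10 to 99 (0.99) and with at least 1000 protease CPM (0.87). Cpa3 had at least 3 UMIs in 84 control and 161 SI members, 46.7% (39.2 to 54.2) and 64.7% (58.4 to 70.6). Gzmb stood at 68.3 CPM (59.7 to 77.8) and 183 CPM (171 to 197), a log2 ratio of 1.41, and of 0.94 with each cell weighing the same. Among members with 3 to 9 protease UMIs the Gzmb ratio was 0.22, so its excess lay in members with 10 or more. Cma1 had 10 UMIs in 2 control and 127 UMIs in 10 SI cells, with 68.5% of the SI UMIs from 1 cell, and a log2 ratio of 0.81 with 3 to 9 protease UMIs. The cathepsin G gene Ctsg (0.25), the proteoglycan core Srgn (0.069) and the cathepsin gene Ctsd (0.036) differed little on the log2 scale.

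Of 16 genes of the IgE receptor and its signalling, 15 were compared, 2 were at or past 2-fold higher in SI and 0 lower. The shares over all genes were 0.778% higher and 0.499% lower. Fcer1a, the chain that binds IgE, on chromosome 1 from 173221284 to 173227214, had 157 UMIs in 32 control cells and 830 UMIs in 60 SI cells. Its level was 47.2 CPM (40.1 to 55.2) in control and 193 CPM (180 to 206) in SI members, a log2 ratio of 2.01. With each cell weighing the same the ratio was 0.90, below 2-fold, and with 3 to 9 protease UMIs it was 3.15. Ms4a2, the beta chain, stood at 67.7 CPM (59.1 to 77.1) and 111 CPM (101 to 121), a log2 ratio of 0.70. Fcer1g, the chain shared with other Fc receptors, stood at 223 CPM (208 to 240) and 345 CPM (328 to 363). The level of each chain summed over members was thus higher in SI, by an amount that depended on the cells counted. With at least 10 protease UMIs the log2 ratio was 0.93 for Fcer1a and 0.036 for Ms4a2, and with at least 1000 protease CPM that of Fcer1a was 0.48. For Ms4a2 it was 0.12 with at least 5 protease UMIs and 0.23 with each cell weighing the same. An equal mix of the 3 protease ranges, whose top range holds 2 control cells and 1 SI cell, turned the log2 ratios of Fcer1a, Ms4a2 and Fcer1g to -0.58, -1.19 and -0.17. Lat2, a signalling adaptor, had a log2 ratio of 1.03, which was 0.91 without doublets. The kinases Lyn (0.0057), Syk (0.32) and Btk (0.099) lay between the 2-fold limits.

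The ratio of SI over control Fcer1a was wider in cells with few protease UMIs than in those with many, whereas the difference in CPM was widest at 30 or more. In control cells Fcer1a went with the proteases, at 6.47 CPM with 0 protease UMIs, 12.3 CPM with 3 to 9, 250 CPM with 10 to 29 and 412 CPM with 30 or more. In SI cells it was 262 CPM with 0 protease UMIs, 117 CPM with 3 to 9, 504 CPM with 10 to 29 and 823 CPM with 30 or more. Cpa3 likewise stood at 71.6 CPM in control and 640 CPM in SI cells with 0 protease UMIs. By ratio, the libraries lay closer together for both genes at 10 to 29 and at 30 or more protease UMIs than at 0. The cells with 0 protease UMIs differed in make-up. Those with at least 3 Cpa3 UMIs, at least 1 Fcer1a UMI and fewer than 3 Cd79a UMIs numbered 181 in control and 2544 in SI. Fcer1a, which helped choose them, stood at 228 and 858 CPM there. Their part in the levels at 0 protease UMIs was not tested. Gata2 stood at 252 CPM in control and 283 CPM in SI members with 10 to 99 protease UMIs, and at 71.6 and 78.8 CPM with 3 to 9.

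**Figure D3:**
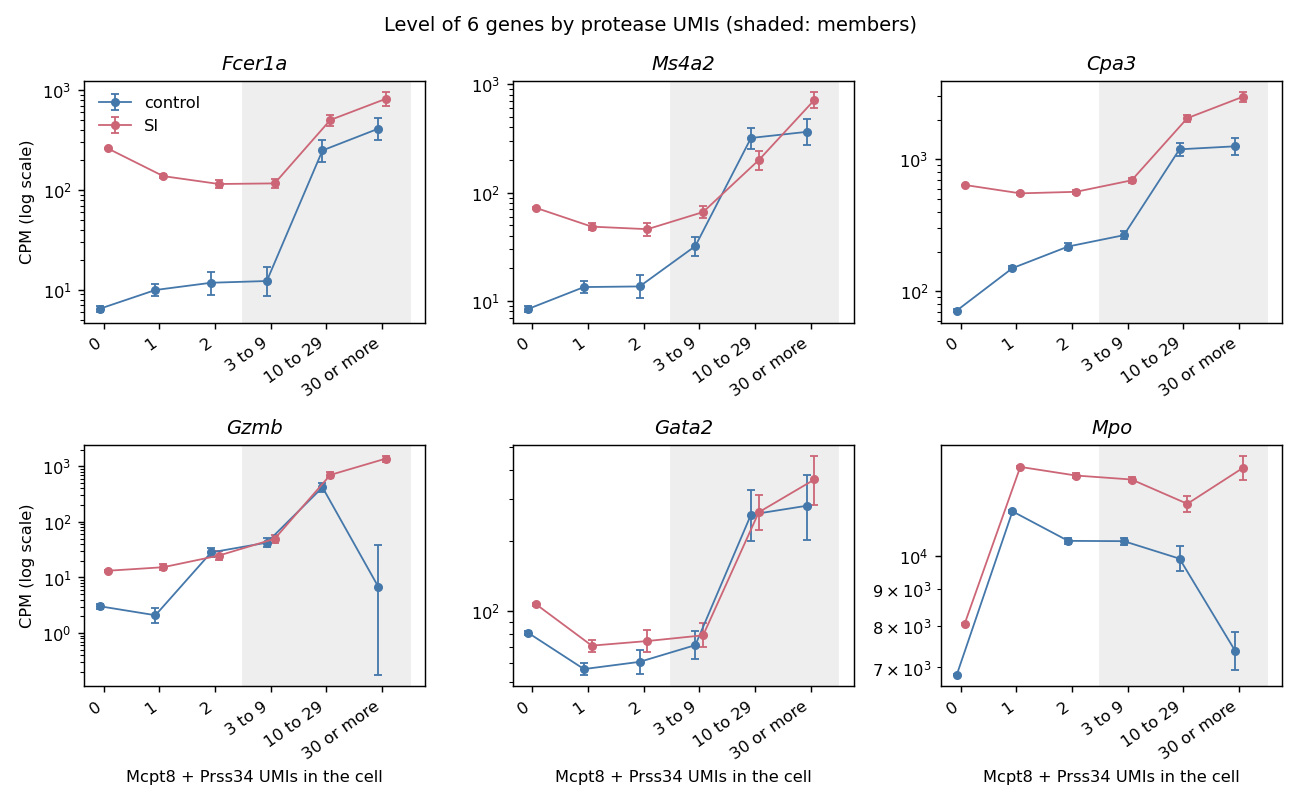
CPM on a log scale of 6 genes in cells with 0 to 30 or more Mcpt8 and Prss34 UMIs, control and SI, with 95% counting intervals; the shaded ranges are members. Fcer1a in control lies at 6.47 CPM without protease UMIs and 412 CPM at 30 or more, whereas in SI the cells without protease UMIs are already at 262 CPM.

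Detection per cell was compared at equal depth. A comparator was taken after the data had been seen, cells with at least 10 Mpo UMIs, 0 protease UMIs and fewer than 3 Cd79a UMIs, 4767 in control and 5486 in SI. At 3000 UMIs per cell Fcer1a was found in 9.44% (5.60 to 14.7) of control members and 1.02% (0.755 to 1.35) of the control comparator. In SI it was found in 16.3% (11.9 to 21.5) of members and 16.6% (15.6 to 17.6) of the comparator. The counting intervals of members and comparator lay apart in the control and overlapped in the SI library, 1 library each. The comparator required 10 Mpo UMIs, which 169 of 180 control and 231 of 249 SI members had. Erythroid cells with Klf1 and at least 3 Car1 UMIs, which should lack the gene, had Fcer1a in 0.584% (0.334 to 0.947) and 4.15% (3.04 to 5.51). Before thinning the member shares were 17.8% and 24.1%, and the erythroid shares 2.68% and 11.0%, with medians of 15698 and 15882 UMIs in members and of 19519 and 19561 UMIs in the erythroid cells.

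Within the members, those with a UMI of Fcer1a or Ms4a2 had other levels of several genes than those without, in both libraries. Their median depth was 12063 UMIs in control and 14805 in SI, against 15908 and 16451 in those without. A single UMI placed a cell among those with the receptor, and erythroid cells also held Fcer1a UMIs, more so in SI. Gata2, which drives basophil and mast cell fates, stood at 263 CPM in the 43 control and 275 CPM in the 78 SI cells with the receptor, against 42.2 and 43.8 CPM in those without. Lmo4, a partner of GATA complexes, stood at 332 and 345 CPM against 40.6 and 43.4 CPM. For these 2 genes control and SI lay closer together than cells with and without the receptor. Csf2rb2, the interleukin 3 specific beta chain, stood at 24.2 and 44.3 CPM against 3.94 and 2.65 CPM. Elane, the neutrophil elastase, was the reverse, at 4556 and 4008 CPM against 6874 and 6814 CPM.

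Among cytokine receptors, 14 of 18 were compared, 2 were at or past 2-fold higher in SI, 0 were lower, and the median log2 ratio was 0.34. Over all genes 0.778% were higher, and the median was 0.036. Il1rl1 stood at 8.12 CPM (5.35 to 11.8) in control and 31.1 CPM (26.1 to 36.9) in SI members, a log2 ratio of 1.82, and of 0.90 with 3 to 9 protease UMIs. Il18rap, a subunit of the interleukin 18 receptor, had a log2 ratio of 1.02, and 0.84 without doublets. Il3ra, the receptor for interleukin 3, the main growth factor of basophils, stood at 74.0 CPM (65.0 to 83.9) and 98.1 CPM (88.9 to 108), a log2 ratio of 0.40. Kit stood at 223 and 246 CPM and Csf2rb, the common beta chain, at 55.1 and 67.2 CPM. Crlf2, the receptor of thymic stromal lymphopoietin, stood at 115 and 120 CPM.

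Of 18 surface genes, 13 were compared and Cd69, an activation antigen, was the 1 at or past 2-fold higher, at 20.5 and 51.4 CPM. Cd200r3, an activating receptor of mature basophils and mast cells, had 17 UMIs in 6 control and 2 UMIs in 2 SI members, a CPM ratio of control over SI of 11.0 (2.61 to 98.2), with 64.7% of the control UMIs from 1 cell. The stem and progenitor antigen Cd34 stood at 341 and 377 CPM, and Itga2, the basophil antigen CD49b, at 3.31 and 2.32 CPM.

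Of 21 mediator genes, 7 were compared and 0 were at or past 2-fold either way, with a median log2 ratio of -0.025. Hdc stood at 168 CPM (154 to 182) in control and 246 CPM (232 to 262) in SI members, in 130 and 181 cells. Alox5ap, needed for leukotriene synthesis, stood at 412 and 405 CPM. Ccl9, a chemokine, stood at 153 and 125 CPM. Il4, the cytokine for which basophils are best known, had 3 UMIs in control and 11 in SI members.

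Of 28 transcription factor genes, 25 were compared, Id2 was at or past 2-fold higher, 0 were lower, and the median log2 ratio was 0.12. Id2, an inhibitor of E proteins, stood at 6.32 CPM (3.91 to 9.66) and 20.9 CPM (16.8 to 25.7), and its log2 ratio of 1.58 was 0.42 among members with 3 to 9 protease UMIs and 0.92 with a pseudocount of 10 CPM. Gata2 stood at 94.5 CPM (84.3 to 105) and 113 CPM (103 to 123). Gata1, the GATA factor of erythroid, mast and eosinophil cells, stood at 34.6 CPM (28.6 to 41.5) and 17.7 CPM (13.9 to 22.1), a log2 ratio of -0.93. Cebpa, which directs basophil over mast cell fate, stood at 97.8 and 113 CPM, and Mitf, the mast cell factor, at 16.5 and 22.5 CPM. Summed over all members, both factors thus stayed within 2-fold, but the sums mix groups that differed. In the Gzmb cells Mitf stood at 35.4 CPM (7.30 to 103) in control and 155 CPM (97.2 to 235) in SI. Cebpa stood at 11.8 and 35.2 CPM there. In the Prss34 cells Mitf stood at 11.3 and 6.31 CPM and Cebpa at 147 and 208 CPM. These groups are small, and the control Mitf values rest on 3 and 5 UMIs.

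The largest ratios beyond these lists are given beside those in the Mpo-high comparator. Serpina3i, a serpin gene, had 0 UMIs in control members and 269 UMIs in 120 SI members, 62.5 CPM (55.3 to 70.4), at least 69.3-fold higher when the control members are set to 3 counts in all, while the exact interval of the ratio starts at 55.9. The comparator had 0 control UMIs and 92.2 CPM in SI. Rgcc, a regulator of the cell cycle, was found in 125 of 180 control and 20 of 249 SI members, at 161 CPM (147 to 175) and 5.58 CPM (3.57 to 8.30), a log2 ratio of -4.62, and of -4.72 in the comparator. Tpm3-rs7 stood at -4.44 in members and -4.14 in the comparator. Reads of Serpina3i, Hspa1b and Tpm3-rs7 can be shared with near copies, so these counts are uncertain. Hspa1b, a heat shock protein (3.50), and Igfbp7 (2.09, and 0.27 with at least 1000 protease CPM) stood at 2.51 and 3.41 in the comparator. The comparator and the members come from the same 2 libraries, so neither ratio is independent evidence of the other.

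**Figure D4:**
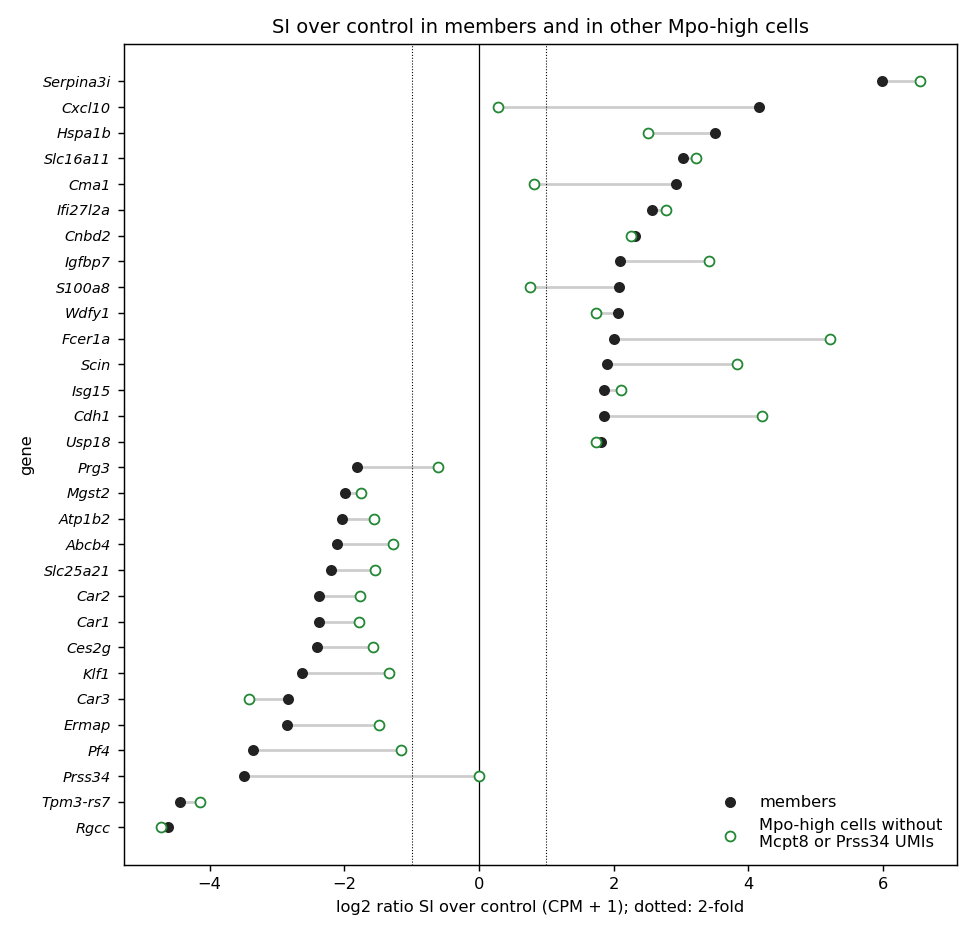
The log2 ratio of SI over control CPM (+ 1) for the 15 genes with the largest ratio each way in members (filled) and the same ratio in Mpo-high cells with 0 Mcpt8 and Prss34 UMIs (open), where Prss34 is 0 by construction. Serpina3i, Rgcc and Tpm3-rs7 lie close together in both, Fcer1a is at 2.01 in members and 5.21 in the comparator, and Cxcl10 is at 4.16 and 0.28.

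Some of the largest ratios rested on few cells. Cxcl10, a chemokine, had 119 UMIs in SI members, 98.3% of them from 1 cell, and a log2 ratio of -0.51 without the Car1 or Pf4 members. S100a8, a calcium-binding protein of neutrophils, had 160 UMIs in 16 control and 890 UMIs in 40 SI cells, with 59.4% and 51.4% from 1 cell each. In members with the IgE receptor its ratio was -2.01. From 1 cell came 50% or more of the higher library's UMIs for 4 of the 67 higher and 1 of the 43 lower genes. Of 15 interferon-response genes listed, 11 were compared and 7 were at or past 2-fold higher, Cxcl10 among them, with a median log2 ratio of 1.37. Over all genes compared, the share higher was 0.778% and the median 0.036. The summed list stood at 354 CPM in control and 702 CPM in SI members, at 369 and 792 CPM in the comparator and at 380 and 972 CPM in all other cells, higher in SI in each of these sets of cells. Isg15 had a UMI in 24 control and 69 SI members, at 11.4 and 44.1 CPM, and Ifi47 in 113 and 205, at 68.9 and 140 CPM.

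Erythroid genes were lower in SI members. Of 13 listed, 6 were compared and all 6 were at or past 2-fold lower, against 0.499% of all genes compared. These 6 were Klf1, Car1, Car2, Aqp1, Ermap and Blvrb. Car1, a carbonic anhydrase of red cell progenitors, stood at 360 CPM (340 to 381) in 46 control cells and 68.8 CPM (61.2 to 77.1) in 23 SI cells, a log2 ratio of -2.37. From 1 SI cell came 62.8% of the SI UMIs, and with the top cell of each library left out the log2 ratio was -3.56. Car1 had at least 3 UMIs in 17 control and 5 SI members, some far deeper than the control median of 15698 UMIs. The deepest control members, of 68899, 67167, 58364 and 57069 UMIs, held 133, 144, 118 and 88 Car1 UMIs. The top SI cell held 186 at a depth of 52823 UMIs. With doublets left out, 30 of the 43 genes lower in SI members were still at or past 2-fold. The summed list had a median of 91.0 CPM per cell (0 to 8468) in control and 39.6 CPM (0 to 5452) in SI members, and 43 and 112 cells had none of it. The globin gene Hba-a2 was the 1 listed gene at 0 in all members. The other listed globin genes, Hba-a1, Hbb-bs and Hbb-bt, had UMIs in members but were too low to compare. Over all other cells of each library the list stood at 2449 and 1053 CPM. In erythroid cells with Klf1 and at least 3 Car1 UMIs the log2 ratio of Car1 was 0.048. Car1 itself chose those cells, so this value cannot be set against that of the members. Without the members holding Car1 or Pf4, Slc25a21 turned to 0.67 from -2.20. The part of RNA from erythroid cells in these ratios was not tested.

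Of the remaining lists, neutrophil genes had 11 of 14 compared, with S100a8 and S100a9 higher, Ngp lower, and a median log2 ratio of 0.25. Monocyte (7 of 10), stem cell (10 of 12), S phase (20 of 20) and G2/M (20 of 20) genes had 0 at or past 2-fold. Of 3 eosinophil genes compared, Prg3 and Siglecf were lower, and the summed list was lower in SI outside the members also, at 33.0 and 10.6 CPM in the comparator and 27.7 and 10.5 CPM in all other cells. Nkg7, a granule membrane protein, was found in 179 of 180 control and 171 of 249 SI members and stood at 554 CPM (529 to 579) and 192 CPM (179 to 205), a log2 ratio of -1.53, and of -1.92 in the comparator. Of 13 B-cell markers 7 were at 0 in all members.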

How the data were processed

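The authors deposited, for each library, a matrix of raw UMI counts with genes and cell barcodes as its axes. The submitters' processing notes name Cell Ranger 7.1.0 and mm10. A deposited table of receptor contigs per library, with the authors' UMI counts per contig, was used to look for members with a contig. From the counts, cells were filtered and members chosen as stated above, their UMIs were summed per library and given as CPM, and log2 ratios were taken with a pseudocount of 1 CPM for genes of at least 10 mean CPM (Python 3.11.15, numpy 2.4.6, scipy 1.17.1). With 1 library per group there is no test. Intervals are exact Poisson for CPM, exact conditional for ratios and Clopper-Pearson for shares, at 95%. They and the floor of 3 counts cover counting error alone. Detection was compared after thinning each cell to 3000 UMIs, which left out 3 SI members. The thinning was random, and its spread is not in the intervals. The ratio step was tested on simulated data. The simulated sums were Poisson draws without cells, so the test does not cover UMIs that gather in single cells.

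The members and the 23 gene lists were chosen with earlier results of these data known. Genes named are those of the 6 lists on granules, IgE receptor, cytokine receptors, surface, mediators and transcription factors, and the 15 largest ratios each way with at least 50 UMIs in the higher library, leaving out receptor segments, mitochondrial, ribosomal, numbered predicted and sex-linked genes. Genes outside this rule (such as Mpo, Elane, Il1rl1 in cell groups, Siglecf, Nkg7 and the genes of other marker lists) were named after their values were seen. Doublets were scored with Scrublet in scanpy 1.11.5 (expected share 8%). Its own threshold had not worked in the SI library, so members stayed in and a score of 0.25 was used for an alternative. Gene positions are from GENCODE M21 (GRCm38), which held 32158 of 32285 gene identifiers. Alternatives covered the member rule, doublets, the cell filter, scaling, the pseudocount, the filter on low values and the weight of cells. Leaving out top cells, members of 100 or more protease UMIs or members with Car1 or Pf4, keeping only members with the IgE receptor, and the Mpo-high comparator were chosen after seeing the data.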

Additional observations from a re-analysis of the deposited data

How the results depend on the processing

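No paired analysis was possible because each group had 1 library. Member shares of control and SI moved to 0.521% and 0.902% with at least 5 protease UMIs, to 0.227% and 0.389% with at least 10 and to 0.177% and 0.315% with at least 1000 protease CPM in the cell, and kept their order. The numbers of higher and lower genes, 67 and 43, became 177 and 119 with at least 5 protease UMIs, 518 and 334 with at least 10, and 772 and 638 with at least 1000 protease CPM, each with fewer cells. They became 497 and 371 with 10 to 99 protease UMIs only, 1582 and 2202 with 100 or more only (2 cells against 1), and 1260 and 1184 with an equal mix of the 3 ranges. They were 33 and 23 with a pseudocount of 10 CPM, 13 and 8 with a mean of at least 50 CPM, and 342 and 283 with no filter on low values. Higher genes numbered 101 with each cell weighing the same. Lower genes numbered 28 without the members holding Car1 or Pf4, and members with the IgE receptor gave 233 and 232. Without doublets 53 of the 67 and 30 of the 43 were still at or past 2-fold.

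With 100 or more protease UMIs only, 38 of the 67 higher and 34 of the 43 lower genes had another sign or stood at 0, as did 4 and 10 with at least 1000 protease CPM. Cxcl10 turned to -0.85 (at least 5 protease UMIs), -1.83 (at least 10), -0.76 (at least 1000 CPM), -6.37 (100 or more only), -1.24 (equal mix), -0.51 (without Car1 or Pf4 members) and -0.36 (IgE receptor only). Mgst2 turned to 0.59 (at least 10), 2.55 (at least 1000 CPM) and 0.57 (10 to 99 only), Atp1b2 to 0.014 and Prg3 to 1.75 (at least 1000 CPM). With 100 or more protease UMIs only, Igfbp7 turned to -7.94, S100a8 to -6.37, Fcer1a to -1.06, Ms4a2 to -2.16, Fcer1g to -0.50, Il18rap to -7.36 and Nkg7 to 0.74. In the equal mix Igfbp7 turned to -1.41, Fcer1a to -0.58 and Il18rap to -1.66. Slc25a21 turned to 0.67 without Car1 or Pf4 members. With the IgE receptor only, S100a8 turned to -2.01 and S100a9 to -3.83. Beyond the change in cells counted, the cause was not tested. Over 153 genes and 21 alternatives, 2465 values stayed within the counting interval, 725 lay outside it, and 23 values of genes at or past 2-fold turned direction. A mean of at least 50 CPM and no filter on low values change only which genes are compared. The 153 values of each of these settings could not move and are counted among the 2465. Depth limits genes seen in few members, since a floor of 3 cells is 1.67% of 180 control and 1.22% of 246 SI members at equal depth. The exact interval for 0 of 180 members with a UMI ends at 2.03%.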
